A study of Mus musculus with 9 samples.

Results

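The cadherin superfamily genes of trigeminal sensory neurons were taken as all symbols in the deposited count table that begin with Cdh and a digit or with Pcdh. This gave 59 of 21536 genes, of which 23 are Cdh genes and 36 are Pcdh genes. The table comes from Dropseq, a droplet method that tags the 3′ end of each captured transcript with a cell barcode and a unique molecular identifier (UMI), applied to dissociated trigeminal ganglia in 9 runs. The mice were wild-type animals of the FVB/N strain, male and female, whose labelled ages ran from 3 to 6 weeks. The paper's methods give a narrower age range for the mice of the Dropseq runs. Ganglia of several mice were pooled for each run, and the cells passed a Percoll gradient and a depletion of non-neuronal cells. All 9 runs belong to 1 group and the barcodes do not name their run, so every comparison below is between cells of 1 pooled sample, without replicates and without a test. Intervals are exact 95% intervals and cover counting error only.

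Neurons were the 3855 barcodes with 500 to 7500 genes, a UMI of at least 3 of the 6 neuronal genes Tubb3, Scn9a, Snap25, Nefl, Nefm and Uchl1, and none of the epithelial gene Epcam. They were placed in 7 groups by the first limit met. The Trpm8 group (2 or more UMIs of the cooling receptor) held 244 neurons and the Mrgprd group (2 or more UMIs of a receptor of non-peptidergic nociceptors) held 379. The Mrgpra3 group (1 or more UMIs of the chloroquine receptor of itch neurons) held 49 and the Nppb group (2 or more UMIs of an itch peptide) held 57. The Cd34 group (1 or more UMIs) held 320. The Nefh group (5 or more UMIs of the heavy neurofilament of large myelinated neurons, and no Trpv1) held 450, and the Calca group (5 or more UMIs of the CGRP gene, and Trpv1) held 916. Because the first limit met decides, groups hold neurons that also met a later limit, namely 149 Trpm8, 100 Mrgprd, 21 Mrgpra3, 6 Nppb and 73 Cd34 neurons. The remaining 1440 neurons, with a median of 1826.5 UMIs, met no limit. Median depth ran from 3406 UMIs in the Nppb group to 5835.5 in the Cd34 group. At the limit itself lay 133 of the Cd34, 105 of the Mrgprd, 92 of the Trpm8, 23 of the Nppb and 16 of the Mrgpra3 neurons. There were 147 neurons 1 UMI short of the Mrgprd limit and 145 neurons 1 UMI short of the Trpm8 limit. Of the 21 marker genes listed for the groups, 18 were highest in their own group, and the exceptions were Gna14 and S1pr1, highest in the Nppb group, and Nxn, highest in the Calca group. S1pr1 and Nxn were listed for the Mrgpra3 group, whose label therefore rests on Etv1 (486 UMIs per 1000000, against 247 in the Nppb group) and on Mrgpra3 itself.

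Cadherins are calcium-dependent adhesion molecules that mostly bind the same or a closely related cadherin on a neighbouring cell. Classical type I and type II cadherins tie the membrane to actin through catenins, and combinations of them are known to help sort neurons and match axons to targets in the spinal cord and brain. Protocadherins have more extracellular repeats and different tails. The non-clustered delta-1 and delta-2 protocadherins are singly placed genes, whereas the alpha, beta and gamma protocadherins lie in 1 chromosomal cluster from which each neuron is known to use a small set of promoters, giving neighbouring neurons different surface identities. Cdh8 is known from mouse work as a molecule needed at the first spinal synapse of cold-sensing afferents.

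Of the 59 members, 57 had a UMI in a grouped neuron and 31 had at least 50 UMIs over the 7 groups, the amount needed to enter the comparisons. A further 26 had between 1 and 43 UMIs, and 2 had none. Levels are given as UMIs per 1000000 UMIs of the group (CPM). Because 1 UMI stands for 1 captured 3′ end, no division by transcript length was made. A gene was called higher in a group at 3 or more times its CPM in the other 6 groups pooled, with at least 10 UMIs in at least 5 cells, and lower when 3 or more times below them with at least 10 UMIs expected. The expected number keeps most members from a lower call in the Mrgpra3 and Nppb groups, where 3 UMIs correspond to 9.28 and 10.6 CPM.

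Of the 31 members, 10 were called higher in 1 group each, beside 13.4% of the 11585 genes considered. The median member reached 2.02 times its pooled level in its highest group (middle range 1.59 to 2.51), beside a median of 1.49 (1.28 to 1.92) over all genes considered. The highest of 7 groups rises with counting error in genes of few UMIs, and all genes were not matched to the members for level.

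**Figure D1:**
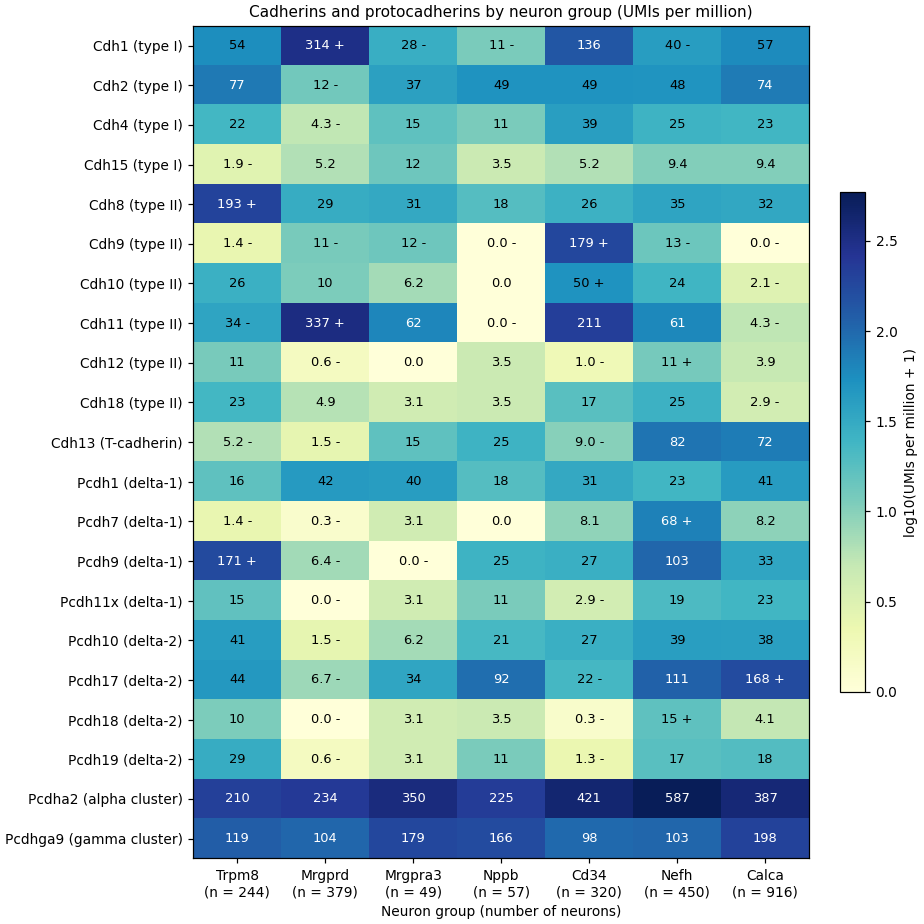
Level of each member outside the beta cluster with at least 50 UMIs, in CPM, in the 7 neuron groups; colour is log10(CPM + 1), + marks a call higher than the other 6 groups pooled and - a call lower. The marks for higher levels fall on Cdh8 and Pcdh9 in the Trpm8 group, Cdh1 and Cdh11 in the Mrgprd group, Cdh9 and Cdh10 in the Cd34 group, Cdh12, Pcdh7 and Pcdh18 in the Nefh group and Pcdh17 in the Calca group, and the Mrgprd column carries most marks for lower levels.

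The sequence before the start of some of these genes is shown so that genes called in the same group can be read side by side. Cdh9 and Cdh10, both highest in the Cd34 group, are also adjacent in the order of members along chromosome 15. RefSeq promoter windows (GRCm38.p6, 250 bases before to 50 after an annotated start) were held for 22 of the 59 members. Below are stretches of up to 150 bases upstream of the start that overlap no annotated exon, 5′ to 3′ on the gene's strand, for 7 of the 10 members called higher, with CG dinucleotides in capitals. Where exons lie next to the start, the stretch ends short of it, by 159 bases for Cdh9, 118 for Cdh12 and 9 for Pcdh18, and these bases are not shown. The first 2 belong to the members of the Trpm8 group, the next 2 to those of the Cd34 group, the fifth to the member of the Calca group and the last 2 to members of the Nefh group.
Cdh8: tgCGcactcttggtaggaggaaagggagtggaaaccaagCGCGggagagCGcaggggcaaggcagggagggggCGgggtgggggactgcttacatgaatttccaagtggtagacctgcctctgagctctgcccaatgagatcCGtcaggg
Pcdh9: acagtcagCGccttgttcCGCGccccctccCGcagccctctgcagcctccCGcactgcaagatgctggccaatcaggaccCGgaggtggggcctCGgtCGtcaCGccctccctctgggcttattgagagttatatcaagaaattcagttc
Cdh9: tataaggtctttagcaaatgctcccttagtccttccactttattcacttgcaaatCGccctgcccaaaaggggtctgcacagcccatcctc
Cdh10: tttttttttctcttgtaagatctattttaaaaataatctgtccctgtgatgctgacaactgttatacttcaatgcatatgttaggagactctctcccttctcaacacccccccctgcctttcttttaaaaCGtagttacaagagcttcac
Pcdh17: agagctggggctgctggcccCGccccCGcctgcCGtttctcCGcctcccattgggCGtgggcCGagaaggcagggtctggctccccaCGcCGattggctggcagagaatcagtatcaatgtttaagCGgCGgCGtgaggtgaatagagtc
Pcdh18: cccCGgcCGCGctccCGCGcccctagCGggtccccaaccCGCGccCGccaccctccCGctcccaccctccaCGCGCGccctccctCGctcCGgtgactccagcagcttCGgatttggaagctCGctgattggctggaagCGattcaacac
Cdh12: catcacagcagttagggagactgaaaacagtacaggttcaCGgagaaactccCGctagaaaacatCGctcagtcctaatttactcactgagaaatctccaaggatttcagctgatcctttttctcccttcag

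The stretches lie at chr8:99416472-99416621 (minus strand), chr14:93890680-93890829 (minus), chr15:16728665-16728755 (plus), chr15:18820179-18820328 (plus), chr14:84443413-84443562 (plus), chr3:49757326-49757475 (minus) and chr15:21111202-21111333 (plus). Those of Cdh8, Pcdh9, Cdh9, Cdh10 and Cdh12 fall inside the span RefSeq gives the gene. That of Cdh12 lies far inside it, as the span runs from 20448878 to 21598421, so it is not sequence at the 5′ end of the gene. In the full window of 300 bases, Cdh9 held 8 CG dinucleotides, Cdh12 held 9 and Cdh10 held 2, whereas Cdh8 held 21, Pcdh9 18, Pcdh17 26 and Pcdh18 23. The median over 32851 windows of the genome was 7, and 16.9% of windows held at least as many as that of Pcdh17. The letters TAATTA, a core often bound by homeodomain factors and the same on both strands, were in none of the 22 windows of members and in 5.29% of all windows. Cdh1, Cdh11 and Pcdh7 are named without a stretch.

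The Trpm8 group stood out for the type II cadherin Cdh8 and the delta-1 protocadherin Pcdh9. Cdh8 reached 193 CPM (175 to 212), against 17.6 to 35.0 CPM in the other 6 groups, and Pcdh9 reached 171 CPM (154 to 189). The counts were 409 UMIs in 163 neurons for Cdh8 and 362 UMIs in 151 neurons for Pcdh9. These 2 of 31 members, 6.45%, stood beside 1.54% of all genes called higher in this group.

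For Cdh8 the ratio to the other groups pooled was 6.35 (5.54 to 7.27), and to the next group, Nefh, it was 5.50 (4.48 to 6.81). A UMI of Cdh8 was seen in 66.8% (60.5 to 72.7%) of Trpm8 neurons, or 18.5% when each cell was thinned to 1000 UMIs, and in 0.271% (0.00686 to 1.5%) of 369 red blood cell-like barcodes with a median of 1415 UMIs. Of the 213 neurons with 2 or more UMIs of Cdh8, 44.1% (37.4 to 51.1%) were in the Trpm8 group. The gene thus marked this group without being limited to it.

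Pcdh9 had a ratio of 4.17 (3.65 to 4.75) and was second highest in the Nefh group, at 103 CPM. In the Mrgprd group it was at 6.42 CPM and in the Mrgpra3 group it had no UMI, which is at least 6.23-fold lower than the other groups. Glia-like barcodes also held Pcdh9, at 264 CPM (236 to 296). The 6 glial markers summed to 161 CPM in the Trpm8 group, the lowest value of the 7 groups, and without neurons that had 3 or more glial markers the ratio was 4.07. Both genes were seen in 46.7% of Trpm8 neurons and at least 1 of them in 82.0%. Neurons with a UMI of Cdh8 had a median of 8022 UMIs and those without had 3074, so this overlap cannot be read apart from depth.

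Lower in the Trpm8 group were 5 of 31 members, 16.1%, beside 7.41% of all genes. Cdh13, the T-cadherin that is anchored by a lipid and has no cytoplasmic tail, was at 5.19 CPM (2.59 to 9.28), which is 8.5-fold (4.72 to 17.1) below the others. Cdh9 and Pcdh7 had 3 UMIs each among 244 neurons, with ratios of 0.0338 (0.00695 to 0.0992) and 0.0726 (0.0149 to 0.214). Cdh11 was at 34.4 CPM, between the 60.9 CPM of the Nefh group and the 4.31 CPM of the Calca group. Its pooled reference is set by the Mrgprd and Cd34 groups, at 337 and 211 CPM. Cdh11 was 3.82-fold (3.02 to 4.89) lower and Cdh15 was 4.04-fold (1.53 to 15.1) lower on 4 UMIs. Without the deepest 5% of neurons the values were 2.71-fold and 2.65-fold, and with every neuron weighed the same Cdh11 was 2.70-fold lower, all under the limit. Without neurons that met several limits neither was called. Outside these, the type I N-cadherin Cdh2 was at 76.8 CPM and the delta-2 protocadherin Pcdh19, which acts together with N-cadherin, at 29.2 CPM, the highest values of the 7 groups for these genes and both under the 3-fold limit. Against the mean of the 6 other groups, Pcdh19 and Cdh12 passed it in Trpm8 neurons.

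The Mrgprd group had the most members called lower, and a pair of cadherins called higher. E-cadherin (Cdh1), best known from epithelia, was at 314 CPM (295 to 334), and the type II cadherin Cdh11 at 337 CPM (318 to 358). All other members outside the clusters were at 42.5 CPM or less in these neurons, and Pcdh1 was the first of them. Cdh1 and Cdh11, 2 of 31 members or 6.45%, stood beside 2.55% of all genes called higher here.

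The ratio of Cdh1 to the other groups was 4.59 (4.20 to 5.02) and that of Cdh11 was 4.88 (4.47 to 5.32). For both genes the Cd34 group came second, at 136 CPM for Cdh1 and 211 CPM for Cdh11, and the Mrgprd level was 2.31 times (2.06 to 2.59) and 1.60 times (1.45 to 1.76) that level. A UMI of Cdh1 was seen in 74.4% (69.7 to 78.7%) of Mrgprd neurons and of Cdh11 in 73.4% (68.6 to 77.7%). Thinned to 1000 UMIs the shares were 26.9% and 28.8%, and neither gene had a UMI in the 369 red blood cell-like barcodes (a share of at most 0.813%). Both were seen in 228 neurons (60.2%), and neither in 47. Neurons with a UMI of Cdh1 had a median of 7200.5 UMIs and those without had 3042. The 6 olfactory markers summed to 728 CPM in this group, 715 CPM of it from Gnal, with Omp at 6.72 CPM and Cnga2 at 0. The summed glial markers were at 198 CPM, and without neurons that had 3 or more of them the ratios of Cdh1 and Cdh11 were 5.04 and 5.57.

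As many as 13 of 31 members, 41.9%, were lower in the Mrgprd group, beside 10.8% of all genes. Among type I and II cadherins these were Cdh2 at 11.9 CPM (8.48 to 16.3), Cdh4 at 4.28, Cdh9 at 11.0 and Cdh12 at 0.611. Cdh13 had 5 UMIs in 379 neurons and was 31.5-fold (13.4 to 97.3) lower. Of the 8 delta protocadherins considered, 7 were called lower. Pcdh7 had 1 UMI (ratio 0.0144, upper bound 0.0809), Pcdh19 had 2 UMIs, Pcdh10 had 5, and Pcdh9 and Pcdh17 were 10.7-fold (6.94 to 17.3) and 14.7-fold (9.69 to 23.6) lower. No UMI of Pcdh11x or Pcdh18 was found in 379 neurons, which allows a share of up to 0.792% and makes them at least 17.3-fold and 7.51-fold lower. The eighth, Pcdh1, was at 42.5 CPM, the highest value of the 7 groups and close to the 41.3 CPM of the Calca group. The last of the 13 was Pcdhb14, with 6 UMIs. The calls of Pcdhb14, Cdh9 and Cdh12 were lost under 4, 3 and 1 of 12 alternatives.

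Neither itch group had a member called higher, beside 1.23% of all genes in the Mrgpra3 group and 1.01% in the Nppb group. In the Mrgpra3 group 3 of 31 members, 9.68%, were lower beside 2.13% of all genes. They were Cdh1, with 9 UMIs and 27.8 CPM (12.7 to 52.9), Pcdh9 with none, and Cdh9 with 4 UMIs in 2 neurons, whose ratio of 0.331 was just inside the limit and whose call was lost under 9 of 12 alternatives. The pooled reference of this Cdh9 call is likewise set by the Cd34 group. In the Nppb group 3 members, again 9.68%, were lower beside 1.76% of all genes. Cdh11 and Cdh9 had no UMI in 57 neurons and were at least 11.5-fold and 3.55-fold lower, and Cdh1 had 3 UMIs, a ratio of 0.0908 (0.0187 to 0.266). The call of Cdh9 was lost under 4 of 12 alternatives, and those of Cdh11 and Cdh1 under none.

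The highest member of the Nppb group outside the clusters was Pcdh17, a delta-2 protocadherin, at 91.6 CPM (59.8 to 134). In the Mrgpra3 group it was at 34.0 CPM (17.0 to 60.9). Between the 2 itch groups only 2 members had 50 UMIs, and neither was called, beside 1.66% of genes higher in the Nppb group and 2.04% higher in the Mrgpra3 group. These groups are small and their intervals wide.

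The Cd34 group had 2 type II cadherins called higher. Cdh9, known for roles in synapse specificity in hippocampus and retina, was at 179 CPM (164 to 195), and the next group, Nefh, was at 13 CPM. Cdh10 was at 50.1 CPM (42.5 to 58.6). They were 2 of 31 members, 6.45%, beside 1.99% of all genes.

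Cdh9 had a ratio of 29.4 (23.4 to 37.2), from 554 UMIs in 193 neurons. A UMI was seen in 60.3% (54.7 to 65.7%) of Cd34 neurons and in 16.1% when thinned, against 0.271% of red blood cell-like barcodes. Of 145 neurons with 2 or more UMIs of Cdh9, 73.8% (65.8 to 80.7%) belonged to the Cd34 group, 22 to no group, and none to the Nppb or Calca groups. In the Calca group there was no UMI in 916 neurons, which allows a share of up to 0.328% and makes it at least 83.3-fold lower there than in the other groups. No other considered member had a larger ratio in a group.

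Cdh10 had a ratio of 3.90 (3.13 to 4.86), with the Trpm8 group at 26.4 and the Nefh group at 23.8 CPM. It had no UMI in the Nppb group and 10 UMIs in the Calca group. Cdh11 and Cdh1 were also high in Cd34 neurons, with ratios of 2.11 (1.92 to 2.32) and 1.24 (1.11 to 1.38), which are under the limit. Cdh9 and Cdh11 were both seen in 46.3% of Cd34 neurons, and Cdh9 and Cdh10 in 24.1%. Neurons with Cdh9 had a median of 8407 UMIs, and those without had 4295.

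Cd34 is itself a gene of vascular endothelium, so endothelial markers were read beside these values. The 6 endothelial markers summed to 102 CPM in the Cd34 group, the highest of the 7 groups (14.1 to 102), compared with 8999 CPM in 126 vascular endothelial-like barcodes with fewer than 3 neuronal markers, and 10 of the 320 neurons had 3 or more of them. Without these 10 neurons the ratio of Cdh9 was 29.3 and that of Cdh10 was 3.94. The glial markers summed to 328 CPM in the Cd34 group, and 45 of the 320 neurons had 3 or more of them. Without neurons that had 3 or more glial markers both calls held, and the ratio of Cdh10 was 4.15. Lower in the Cd34 group were 6 of 31 members, 19.4%, beside 6.55% of all genes. They were Cdh12 (3 UMIs), Cdh13 at 9.05 CPM, Pcdh11x at 2.91, Pcdh17 at 22, Pcdh18 with 1 UMI and Pcdh19 with 4 UMIs. The call of Cdh12 was lost under 2 of 12 alternatives and the others under none.

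**Figure D2:**
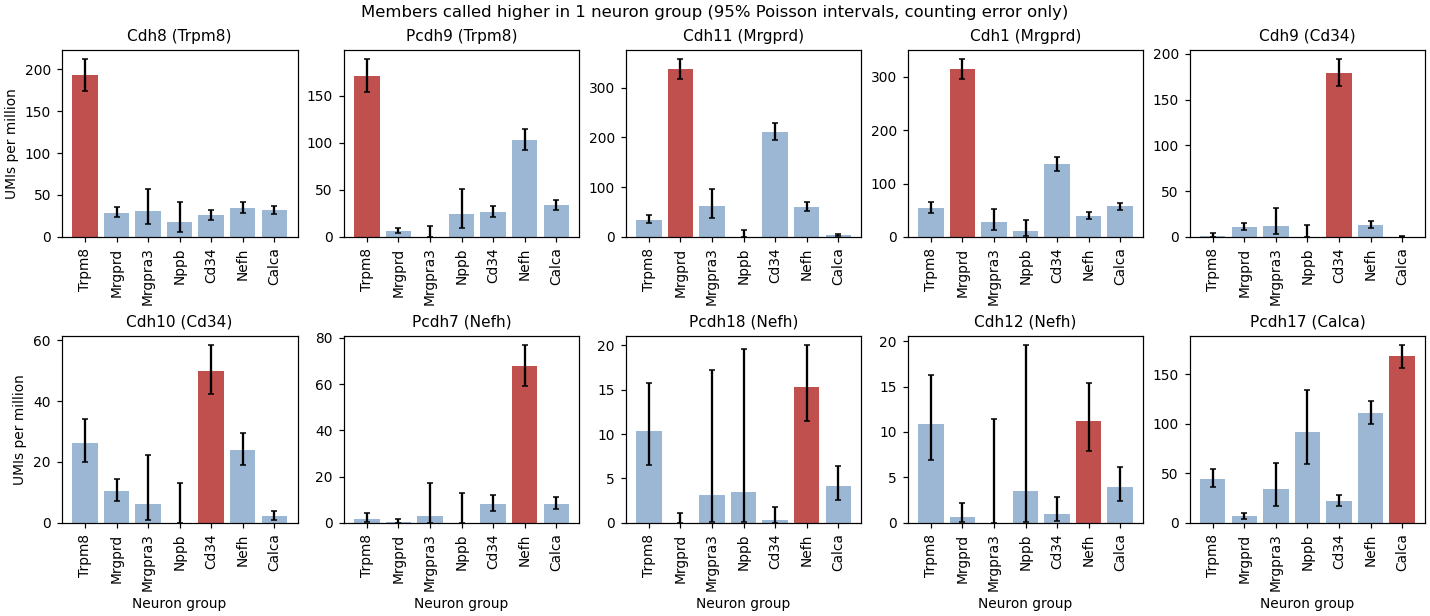
The 10 members called higher in 1 neuron group: CPM in each of the 7 groups, with the calling group in red and 95% Poisson intervals as bars. Cdh8, Cdh9 and Pcdh7 have 1 tall bar each, Cdh1 and Cdh11 have a second bar in the Cd34 group, and for Cdh12 (11.2 and 10.8 CPM) and Pcdh18 (15.3 and 10.4 CPM) the intervals of the Nefh and Trpm8 groups overlap.

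In the large Nefh neurons 2 protocadherins and 1 cadherin were called higher. Pcdh7, a delta-1 protocadherin, was at 67.7 CPM (59.2 to 77.1), against 8.21 CPM in the Calca group and 8.08 CPM or less elsewhere. Pcdh18 was at 15.3 CPM (11.4 to 20.1) and the type II cadherin Cdh12 at 11.2 CPM (7.92 to 15.4). These 3 of 31 members, 9.68%, stood beside 2.99% of all genes.

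Pcdh7 had a ratio of 13.5 (10.3 to 17.9), and a UMI of it was seen in 28.0% (23.9 to 32.4%) of Nefh neurons, 8.02% when thinned. Of the 70 neurons with 2 or more UMIs of Pcdh7, 50 were in this group. Glia-like barcodes held Pcdh7 at 46.3 CPM (34.8 to 60.5), and the glial markers summed to 511 CPM in Nefh neurons, the highest of the 7 groups, compared with 125723 CPM in 357 glia-like barcodes with fewer than 3 neuronal markers. Without neurons that had 3 or more glial markers, the ratio of Pcdh7 was 13.9. No red blood cell-like barcode had a UMI of Pcdh7.

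The ratio of Pcdh18 was 4.75 (3.13 to 7.25) and that of Cdh12 was 3.26 (2.07 to 5.09). Without the deepest 5% of neurons that of Pcdh18 was 7.49. For both, the Trpm8 group was second, at 10.4 and 10.8 CPM, and the intervals of the direct ratio of Nefh to Trpm8, 1.48 (0.881 to 2.55) and 1.03 (0.599 to 1.81), include 1. These 2 genes therefore did not separate Nefh from Trpm8 neurons at this depth. When each UMI limit was raised by 1, the ratio of Cdh12 in the Nefh group was 2.96, under the limit. Lower in the Nefh group were Cdh1 at 40.0 CPM and Cdh9 at 13 CPM, 2 of 31 members or 6.45%, beside 3.97% of all genes. Their ratios, 0.302 and 0.303, were just inside the limit, and the calls were lost under 4 and 6 of 12 alternatives, both among them when the other 6 groups weighed the same. Nefh was in fact the second highest group for Cdh9, and the pooled reference of that call is set by the Cd34 group.

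The Calca group had 1 member called higher, Pcdh17, which is 3.23% of the 31 and stood beside 3.25% of all genes. Pcdh17 was at 168 CPM (157 to 180), with 111 CPM in the Nefh and 91.6 CPM in the Nppb group, and its ratio was 3.51 (3.15 to 3.90). Without neurons that met several of the 7 limits it was 2.88, under the limit. A UMI was seen in 42.4% (39.1 to 45.6%) of Calca neurons, 15.3% when thinned, and in 0.542% (0.0657 to 1.94%) of red blood cell-like barcodes. The glial markers summed to 381 CPM in Calca neurons and the olfactory markers to 449 CPM, with 3 or more of them in 38 and 49 neurons. The call of Pcdh17 held without neurons that had 3 or more glial markers. Leaving out neurons with olfactory markers was not tested. Cdh13 was at 71.9 CPM (64.5 to 79.8) in this group and at 81.6 CPM (72.2 to 91.7) in the Nefh group, and in no other group above 24.7 CPM. Its ratio to the other 6 groups pooled, which include the other of the pair, was 2.70 (2.31 to 3.14) in Calca and 2.81 (2.40 to 3.28) in Nefh neurons. Against the mean of the other 6 groups it passed the limit in both.

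Lower in the Calca group were 4 of 31 members, 12.9%, beside 5.2% of all genes, and all 4 were type II cadherins. Cdh11 was at 4.31 CPM (2.67 to 6.59), 38.2-fold (24.9 to 61.8) below the others. Cdh10 was 12.8-fold (6.87 to 26.9) and Cdh18 5.68-fold (3.31 to 10.6) lower, and Cdh9 had no UMI. The type II cadherins Cdh8, at 31.8 CPM, and Cdh12, at 3.90 CPM, were not called lower.

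The large and the peptidergic neurons were also set side by side. Higher in Nefh than in Calca neurons were 6 of 25 members, beside 4.49% of genes, whereas no member was 3 or more times higher in Calca neurons, beside 4.1% of genes. Cdh11 was 14.1-fold (9.01 to 23.3) higher, Cdh10 11.6-fold (6.00 to 25.1) and Cdh18 8.81-fold (4.98 to 16.8). Pcdh7 was 8.24-fold (5.87 to 11.8), Pcdh18 3.73-fold (2.19 to 6.59; 5.85-fold without the deepest 5% of neurons) and Pcdh9 3.08-fold (2.55 to 3.73) higher. The set comprises 3 type II cadherins and 3 delta protocadherins, and Pcdh9 was under the limit in 2 of the 7 alternatives that changed the neurons or their weights, with a lowest ratio of 2.87. Below the 3-fold limit, 6 members were higher in Calca neurons with intervals above 1, at 1.43-fold (1.16 to 1.77) for Cdh1 up to 1.92-fold (1.70 to 2.18) for Pcdhga9 and 2.04-fold (1.09 to 4.06) for Pcdhb17. The others were Pcdh1 at 1.82-fold (1.39 to 2.40), Cdh2 at 1.53-fold (1.27 to 1.85) and Pcdh17 at 1.51-fold (1.34 to 1.71). The share of all genes with such intervals was not computed, so this count of 6 has no background to be read beside.

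Trpm8 neurons were likewise compared with Cd34 neurons. Higher in Trpm8 neurons were 3 of 15 members, beside 3.01% of genes, namely Pcdh19 at 22.6-fold (8.4 to 85.6), Cdh8 at 7.55-fold (5.92 to 9.74) and Pcdh9 at 6.36-fold (5.0 to 8.18). Without the deepest 5% of neurons Pcdh19 was 18.8-fold higher on 41 against 3 UMIs, too few in all to be considered, and with UMI limits raised by 1 it was 70.9-fold higher on 52 against 1. Higher in Cd34 neurons were 2 members, beside 5.44% of genes, Cdh9 at 127-fold (43.1 to 616) on 554 against 3 UMIs and Cdh11 at 6.13-fold (4.81 to 7.92). For Cdh9 the alternatives ranged from 73.3-fold without the deepest 5% of neurons to 309-fold with UMI limits raised by 1. Between the Mrgpr groups, Cdh1 was 11.3-fold (5.92 to 24.7) and Cdh11 5.45-fold (3.51 to 8.96) higher in Mrgprd neurons, 2 of 7 members beside 3.07% of genes. Cdh2 was 3.11-fold (1.48 to 6.07) higher in Mrgpra3 neurons on 12 UMIs, 1 of 7 beside 1.17%, and this call was lost under 5 of those 7 alternatives, with ratios of 1.67 to 5.22.

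Subgroups were formed within 5 groups by genes that are not members. A neuron joined the set of listed genes with most UMIs in it, except that Nefh neurons were divided by UMI limits on Ntrk2 and Calca. The subgroups did not take in whole groups, and 199 Calca, 95 Mrgprd, 79 Cd34, 62 Trpm8 and 43 Nefh neurons were left out of them. The clearest division was among Calca neurons. Those with Trpa1, Mfap5 or Gpr83 (328 neurons) had 3 of 17 members higher than the other Calca subgroups, beside 1.11% of genes. Cdh1 was at 117 CPM (102 to 133) against 16.7, Cdh8 at 64.0 CPM (53.0 to 76.5) against 11.1, and Pcdh19 at 35.7 CPM (27.7 to 45.4) against 2.57. The ratios were 7.0 (4.96 to 10.1), 5.76 (3.74 to 9.17) and 13.9 (6.07 to 39.3). Median depth was much alike, at 3903 UMIs here and 3939 to 4088 in the other 3 subgroups.

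These 3 genes were not called in Calca neurons as a whole. The Cyp1b1, Kit or Kcnk3 subgroup (281 neurons) had 12.5 CPM of Cdh1 and 4 UMIs of Pcdh19. No member was higher in it, nor in the Sstr2 or Dcdc2a subgroup (57 neurons) or the Fam150b or Ptger1 subgroup (51 neurons), beside 0.723%, 0.356% and 0.703% of genes. Cdh1 and Cdh8 were both seen in 42 Calca neurons. Among Calca neurons with Cdh1, 25.9% also had Cdh8, and among those without it 9.28% did, with median depths of 6202.5 and 3285.5 UMIs.

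Nefh neurons with 2 or more UMIs of Calca and fewer than 2 of Ntrk2 (110 neurons) had 2 of 20 members higher, beside 1.54% of genes. These were Cdh15, the M-cadherin known from muscle, at 21.5 CPM (13.7 to 32.3) against 4.06, a ratio of 5.31 (2.29 to 13.7), and R-cadherin (Cdh4) at 45.9 CPM (33.9 to 60.7) against 13.7, a ratio of 3.35 (2.05 to 5.57). Cdh15 rested on 23 UMIs in 14 neurons and, without the deepest 5% of neurons, had a ratio of 3.28 on too few UMIs for a call. Cdh4 had a ratio of 2.39 when every neuron weighed the same. No member was higher in Nefh neurons with Ntrk2 (91 neurons) or without Calca (206 neurons), beside 0.622% and 0.211% of genes. Pcdh9 was level across the 3 Nefh subgroups, at 102 to 105 CPM.

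Trpm8 neurons with Ociad2 or Cpne9 (122 neurons) had Cdh18 at 33.2 CPM (24.0 to 44.9) against 7.05, a ratio of 4.71 (1.71 to 18.1), 1 of 13 members beside 2.23% of genes. Those with Ndrg1 or Angpt4 (60 neurons) had Cdh11 at 70.5 CPM (50.4 to 96.1) against 18.2, a ratio of 3.88 (2.27 to 6.78), 1 of 13 beside 1.94%. Both calls were lost when the deepest neurons were left out or when every neuron weighed the same, with ratios down to 2.5 and 2.29. No member was called between Mrgprd neurons with Otoa, Prkcq or Mrgprb5 (213) and those with Agtr1a or Mrgpra1 (71), beside 0.754% and 0.73% of genes. None was called between Cd34 neurons with Scin (23) and those with Fam19a4 (218) either, beside 0.119% and 4.77%. Pcdh17 was at 36.8 CPM (14.8 to 75.7) in the first and between 6.41 and 14.9 CPM (95% interval) in the second, a ratio of 3.67 (1.34 to 8.78) that rests on 7 UMIs in 4 Scin neurons and so misses the minimum of 10 UMIs. Cdh9 was at 137 CPM (89.2 to 200) in Scin and 203 CPM (185 to 222) in Fam19a4 neurons.

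**Figure D3:**
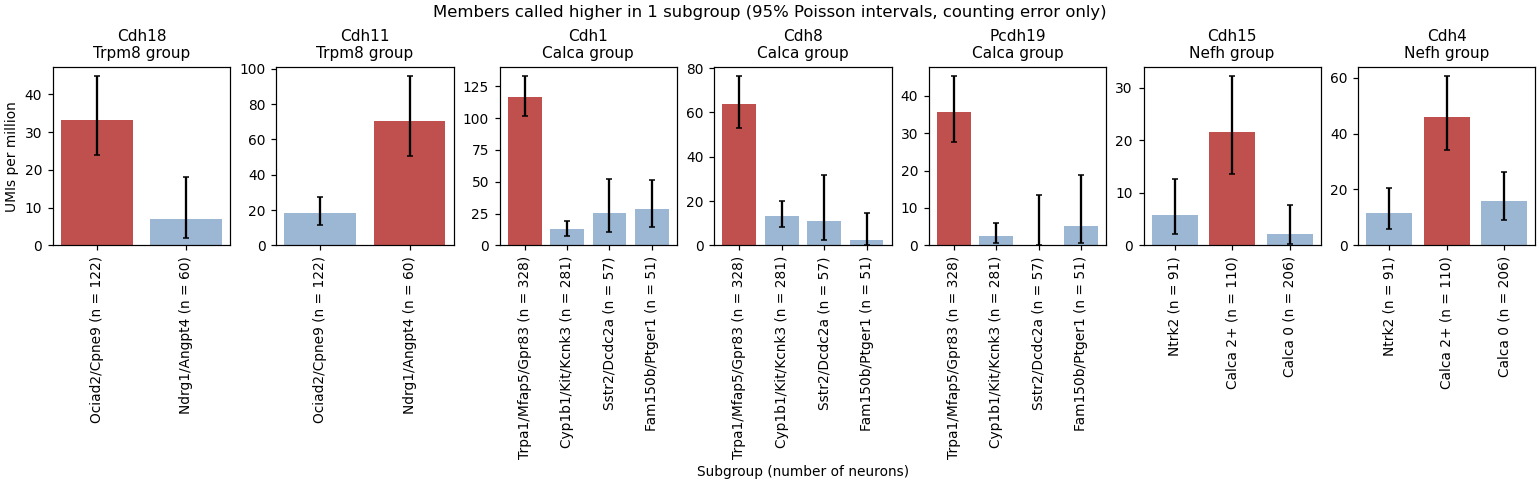
The 7 calls of members between subgroups of 1 neuron group: CPM in each subgroup, with the calling subgroup in red and 95% Poisson intervals as bars. In Calca neurons Cdh1, Cdh8 and Pcdh19 stand highest in the Trpa1, Mfap5 or Gpr83 subgroup, whose intervals do not reach those of the other 3 subgroups.

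The clustered protocadherins accounted for much of the family's transcripts. The 6 members of highest level over all neurons were Pcdha2 (370 CPM), Pcdhga9 (134 CPM), Cdh11 (116 CPM), Cdh1 (111 CPM), Pcdh17 (80.9 CPM) and Pcdh9 (64.7 CPM). Pcdha2 and Pcdhga9 are the only alpha and gamma symbols in the table. Alpha genes share their last exons, as do gamma genes, so 3′ reads cannot tell which variable exon they come from, and the 2 symbols are best read as the whole alpha and gamma clusters. The alpha symbol was highest in Nefh neurons at 587 CPM (562 to 613) and lowest in Trpm8 neurons at 210 CPM (191 to 231). The gamma symbol was highest in Calca neurons at 198 CPM (185 to 210) and lowest in Cd34 neurons at 98.2 CPM (87.5 to 110). Neither was called in any group.

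The 22 beta genes have no shared exon and are read singly, though near-identical copies can share reads and single values are uncertain. Summed, they ran from 40.7 CPM (34.0 to 48.2) in Mrgprd neurons to 78.4 CPM (70.8 to 86.7) in Calca neurons, and no beta UMI was found in the 369 red blood cell-like barcodes. The most frequent were Pcdhb21 with 156 UMIs, 12.1% of the beta UMIs of neurons, Pcdhb7 with 153 and Pcdhb3 with 120. No beta gene was called higher in any group.

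At least 1 beta gene was seen in 866 neurons, 22.5% (21.2 to 23.8%), of which 685 had 1 gene, 142 had 2, 31 had 3 and 8 had 4 or more. The mean was 0.284 different genes per neuron, and 0.0663 when thinned to 1000 UMIs. Of the 150 neurons with exactly 2 beta UMIs, 57 had both from the same gene, 38.0% (30.2 to 46.3%), whereas the squared pooled shares of the 22 genes sum to 7.43%. The same count for the catenins and other cadherin partners described next was 51 of 339 neurons, 15.0% (11.4 to 19.3%), with 7.74% from pooled shares. For the 21 partners under 50 CPM it was 87 of 582, 14.9% (12.1 to 18.1%), with 8.14% from pooled shares. Their levels are nearer to those of beta genes but still higher, at 8164 UMIs in neurons against 1285.

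In every group with at least 15 such neurons, the share of same-gene pairs lay at 33.3 to 41.1%, against 7.21 to 9.21% from the pooled shares of that group. The interval of the beta share did not overlap those of the partner shares. The lists were not matched for level, with 1285 UMIs in neurons for beta genes against 40927 and 8164 for the partner lists. UMIs that differ by a read error would also give pairs of 1 gene. Their part in the 38.0% was not tested, and the partner lists cannot decide it because of this difference in level.

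**Figure D4:**
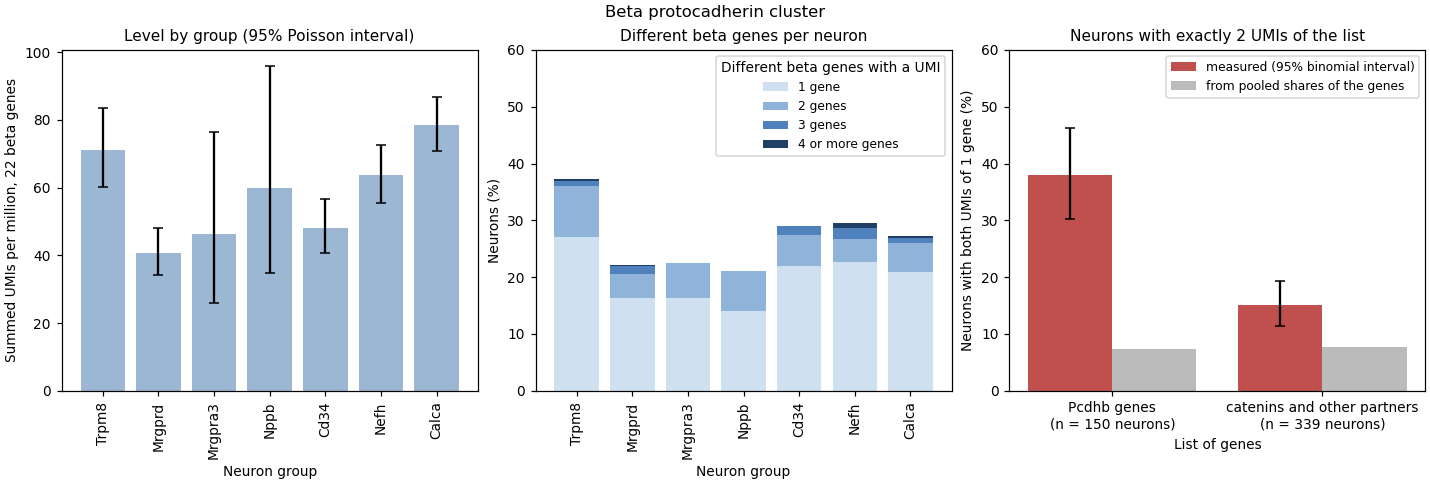
Beta protocadherins: the summed level in CPM by neuron group with 95% Poisson intervals (left), the share of neurons by number of different beta genes with a UMI (middle), and, among neurons with exactly 2 UMIs of a list, the share with both from 1 gene, measured with 95% binomial intervals and as the pooled shares of the genes give it (right). The measured share is 38.0% for the beta genes and 15.0% for the partners, beside 7.43% and 7.74% from pooled shares.

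Cadherins act with catenins, atypical cadherins, calsyntenins and the actin-regulating WAVE complex, and 34 genes of these kinds were listed. The table held 33, and 26 had at least 50 UMIs. The 3 of highest level over neurons were beta-catenin (Ctnnb1), which binds classical cadherin tails, Cyfip2 of the WAVE complex and the neuronal alpha-catenin Ctnna2. Ctnnb1 ran from 174 CPM in Trpm8 to 436 CPM in Mrgprd neurons, Cyfip2 from 132 CPM in Nefh to 415 CPM in Mrgpra3 neurons and Ctnna2 from 162 CPM in Nppb to 326 CPM in Mrgprd neurons, and none of the 3 was called.

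Over the 7 groups partners were called higher 6 times and lower 14 times, with at most 2 of 26 (7.69%) higher and 5 of 26 (19.2%) lower in a group, where 1.01 to 3.25% of all genes were higher and 1.76 to 10.8% lower. Celsr1, an atypical cadherin of planar polarity, was higher in Mrgprd neurons at 25.1 CPM (ratio 6.66, 4.66 to 9.60) and in Mrgpra3 neurons at 30.9 CPM (4.22, 1.97 to 8.02), and lower in Trpm8, Cd34 and Nefh neurons, with no UMI in the first, 3 in the second and 2 in the last. Cdhr1, a protocadherin known from photoreceptors, was higher in Mrgpra3 neurons at 55.7 CPM and in Calca neurons at 41.5 CPM. It was lower in Trpm8 (1 UMI), Mrgprd (3 UMIs) and Cd34 (5 UMIs) neurons. In Mrgpra3 neurons 38.9% of its UMIs came from 1 cell.

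The delta-catenin Ctnnd2 was higher in Calca neurons, at 176 CPM with a ratio of 4.45 (3.98 to 4.98), and lower in Mrgprd and Nppb neurons, at 27.8 and 24.7 CPM. Fat3, a very large atypical cadherin, was higher in Cd34 neurons at 23.6 CPM (3.43, 2.5 to 4.70) and lower in Mrgprd and Calca neurons, with 5 and 6 UMIs. Afadin (Mllt4) and the calsyntenin Clstn3 were lower in Mrgprd neurons, at 21.7 and 2.44 CPM. The alpha-catenin-like Ctnnal1 and Clstn2 were lower in Calca neurons, at 6.16 and 6.78 CPM.

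Barcodes of other cells gave a second reference. They had 200 to 8500 genes, failed the rule for neurons and had a UMI of at least 3 markers of 1 class and more than of any other. VE-cadherin (Cdh5), which seals endothelial junctions, was at 446 CPM (365 to 539) in 128 vascular endothelial-like barcodes and at 1.24 CPM in neurons. Cdh13 was at 147 CPM (102 to 205) there, 3.85 times (2.66 to 5.40) its neuronal level. These are 2 of the 4 members with 10 or more UMIs, beside 26.3% of genes at 3 or more times their level in neurons.

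In 373 glia-like barcodes, the type II cadherin Cdh20 was at 29.2 CPM (20.2 to 40.8) against 1.48 in neurons, and Pcdh9 was at 4.09 times (3.60 to 4.63) its neuronal level, 2 of 18 members beside 8.52% of genes. In 534 pituitary-like barcodes Cdh7 was at 18.6 CPM (12.7 to 26.3) against 0.908, and Pcdh20 at 5.82 CPM on 10 UMIs against 1.29, 2 of 19 members beside 12.3% of genes. None of 15 members was higher in 160 olfactory-like and none of 1 in 391 red blood cell-like barcodes, beside 6.12% and 18.4% of genes.

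Some of these barcodes carried 3 or more neuronal markers, namely 148 of the pituitary-like, 91 of the olfactory-like, 22 of the red blood cell-like, 16 of the glia-like and 2 of the vascular endothelial-like ones, and had failed the rule through Epcam or the limit on genes. Among barcodes with fewer neuronal markers, a choice made after the data were seen, Pcdh7 was at 63.8 CPM and Pcdh9 at 383 CPM in 357 glia-like barcodes, Pcdh10 at 213 CPM (130 to 328) in 69 olfactory-like barcodes, and Cdh5, Cdh7, Cdh13 and Cdh20 at 443, 21.6, 143 and 46.2 CPM in their classes. Pcdh20 had fewer than 10 UMIs there. Pcdh9 and Pcdh7, called higher in Trpm8 and Nefh neurons, were thus also held by glia-like barcodes, at levels above those of neurons pooled.

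**Figure D5:**
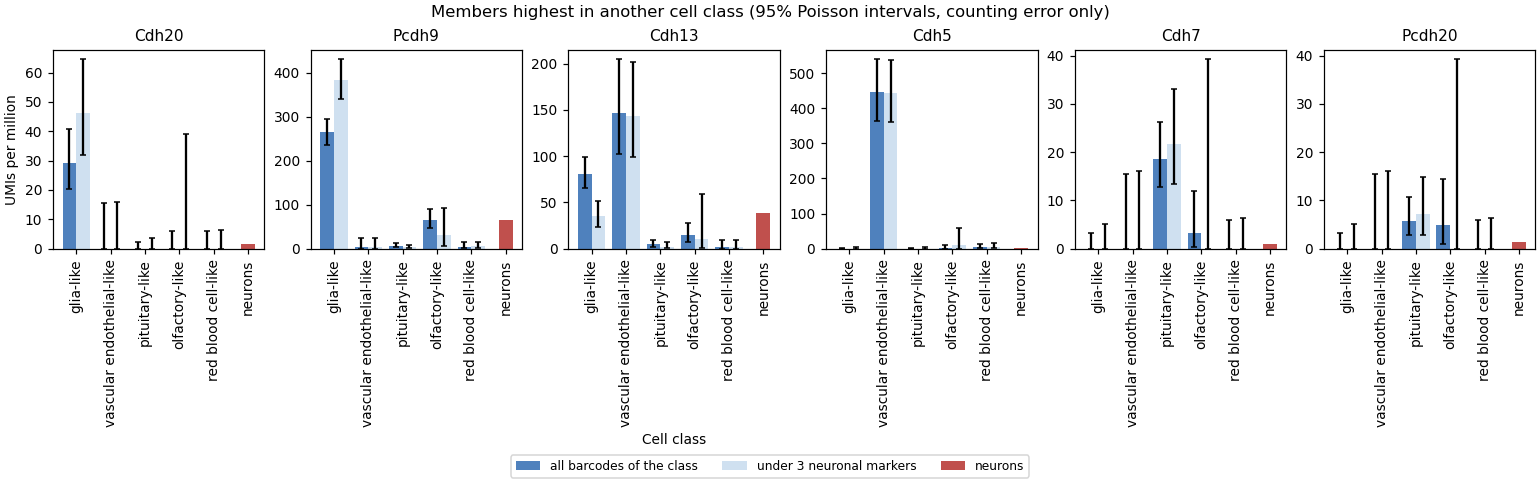
The 6 members highest in another cell class with at least 10 UMIs and 3 times their level in neurons: CPM in each class for all its barcodes and for those with under 3 neuronal markers (95% Poisson intervals), and in neurons (red). Cdh5 stands at 446 CPM in vascular endothelial-like barcodes and Pcdh9 at 264 in glia-like barcodes, while Cdh20, Cdh7 and Pcdh20 stay under 50 in every class.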

How the data were processed

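The authors aligned Dropseq reads of 9 runs to the mouse genome (mm10) with STAR 2.5.3a after bcl2fastq 2.17, kept barcodes with at least 1000 unique transcripts and used Seurat 1.4.0.16, per the submitters' processing notes and the study's methods. They deposited 1 table of raw UMI counts of 21536 genes in 6997 cell barcodes, 30491529 UMIs in all, with a median of 2031 (range 1000 to 190815) per barcode. Reads from near-identical genes and from exons shared between genes cannot be assigned to 1 gene by such 3′ counts. The runs are not marked, so the table was treated as 1 sample. Among the barcodes, 6 sequences occur in 2 columns each, with suffixes, and were kept.

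Neurons and groups were set by the UMI limits given in the report, and subgroups by the rules given there. The members, lists, limits and comparisons were chosen with earlier results of these data known. Counts were summed over the cells of a group, divided by the group's total and multiplied by 1000000 (CPM). Intervals are exact Poisson for CPM, exact Clopper-Pearson for shares and exact conditional binomial for ratios of CPM. With a count of 0, a floor of 3 counts gave the bound. Thinned shares are the hypergeometric expectation at 1000 UMIs per cell. Genes with 50 UMIs over the groups or pair compared, or 30 over subgroups, were considered. Values are given for every member called higher in a group, pair or subgroup, the 6 of highest CPM over neurons, and those highest in another class with 10 UMIs and 3 times the neuronal CPM, and for partners called in a group and the 3 of highest CPM. No doublet caller was run, and an alternative leaves out the 28 neurons that met more than 1 of the Trpm8, Mrgprd, Mrgpra3, Nppb and Cd34 limits, and another all neurons that met several of the 7 limits. Calling was tested on simulated data with known folds, and the outcome is not given here. Python 3.11.15 with numpy 2.4.6, scipy 1.17.1, pandas 2.3.3 and matplotlib 3.10.9 was used. Gene positions and promoter windows are RefSeq's for GRCm38.p6 (59 of 59 symbols matched), and exons were taken from GENCODE M21.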

Additional observations from a re-analysis of the deposited data

How the results depend on the processing

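No paired analysis was possible because all runs belong to 1 group and barcodes do not name their run. Of the 15 alternatives for groups, 12 changed the neurons, their weights or the reference. The 10 calls of members higher in a group held under these 12, except that Pcdh17 in Calca neurons was lost without neurons that met several of the 7 limits, and that UMI limits raised by 1 exchanged Cdh12 in the Nefh group for Cdh12 in the Trpm8 group. Calls were also gained: against the mean of the 6 other groups there were 14, with Cdh12 and Pcdh19 in Trpm8 and Cdh13 in both Nefh and Calca neurons, Cdh18 in Nefh neurons was gained without the deepest 5%, with every neuron weighed the same and without neurons that met several limits, and the last also added Pcdhb20 in Calca neurons. A fold limit of 2 gave 26 calls and of 5 gave 3. Calls between pairs, 14 in the report, were 32 without a minimum of total UMIs. Calls between subgroups, 7 in the report, were 13 at fold 2, 4 at fold 5 and 18 without the minimum. For partners, 6 calls higher became 12 at fold 2 and 1 at fold 5, and 14 calls lower became 25 at fold 2. Partner calls higher numbered 4 without the deepest 5% of neurons and 4 without neurons that met several of the 7 limits. Partner calls lower numbered 11 against the mean of the 6 other groups. Which of the named partner calls were lost is not given. Of 267 ratios of the 31 named calls under alternatives that could change them, 249 stayed inside the interval of the reported ratio, 18 moved outside it and none changed direction. Cdh9 in the Cd34 group ranged from 23.2 to 31.2 and Pcdh7 in the Nefh group from 11.8 to 19.3. The 36 calls of members lower in a group numbered 27 to 54 over the alternatives, and 24 held under all 12. Most often lost were Cdh9 in the Mrgpra3 (9 of 12) and Nefh (6) groups, then Cdh1 in Nefh, Pcdhb14 in Mrgprd and Cdh9 in Nppb (4 each), Cdh11 in Trpm8 and Cdh9 in Mrgprd (3 each), Cdh15 in Trpm8 and Cdh12 in Cd34 (2 each), and Cdh12 in Mrgprd, Cdh1 and Pcdh9 in Mrgpra3 (1 each). Thinned to 1000 UMIs, the median share of neurons with a UMI over the 10 leading members was 15.7% against 51.3%, and the mean number of beta genes per neuron was 0.0663 against 0.284. The alternatives without neurons bearing 3 or more endothelial or glial markers or meeting several of the 7 limits, without repeated barcodes and without class barcodes bearing 3 neuronal markers (7 members in other classes against 6) were chosen after seeing the data. The Mrgpra3 and Nppb groups hold the fewest neurons (49 and 57) and UMIs.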

Other observations

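The 1440 neurons in no group held all the leading members at intermediate levels, such as Cdh1 at 90.9 CPM, Cdh11 at 98.8 CPM, Pcdh9 at 103 CPM, Pcdh17 at 77.2 CPM and Cdh8 at 49.7 CPM. Of the neurons with 2 or more UMIs of Pcdh9, 71 of 274 were in no group, and of those with 2 or more UMIs of Cdh11, 83 of 505.

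The 5 members on chromosome 15 were Cdh6, Cdh9, Cdh10, Cdh12 and Cdh18, in this order. Cdh9 and Cdh10 were highest in Cd34 neurons, and Cdh12 and Cdh18 in Nefh neurons at 11.2 and 25.3 CPM, with the Trpm8 group close behind at 10.8 and 22.6 CPM. Cdh1 and Cdh11, the pair of Mrgprd neurons, are both among the 8 members on chromosome 8, with Cdh3, Cdh5 and Cdh16 between them, which had 23 UMIs or fewer each over the 7 groups.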
